A study of Mus musculus with 46 samples.

Results

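RNA of Ki67-negative microglia from 8-day-old mice was set against RNA of microglia from untreated adults, across all genes of one stranded RNA-seq count table. The comparison uses 4 of the 46 samples of the series. The 2 neonatal libraries are those labelled Ki67-Negative at PND8 (postnatal day 8), and the 2 adult libraries are those labelled Adult_Basal at PND90. Of the 20999 genes in the table, 12230 had enough counts to be tested. The series holds microglia of early postnatal life, of the adult brain repopulating after depletion and of cuprizone treatment, with the adult basal state as the reference, read by RNA-seq, ATAC-seq and ChIP-seq of histone marks and Rpb2. Both groups are male, of the C57BL/6 strain, with treatment None. The neonatal cells carry the Ki67-rfp genotype, a reporter allele by which cells are sorted for the proliferation protein Ki67, whereas the adult cells are WT. The labels also call the adult cells Ki67-Negative microglia. They describe each condition as having 2 independent biological replicates and do not say how many animals went into one. In the 4 libraries compared, age and reporter genotype therefore change together and cannot be told apart.

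Microglia are the resident macrophages of the brain. They derive from the yolk sac, depend on the receptor Csf1r, and divide widely in the first postnatal weeks before settling into a quiescent adult state that is kept by TGF-beta and by transcription factors such as Sall1. Early postnatal microglia in developing white matter are known for genes of lipid handling and growth support, among them Igf1, Spp1, Gpnmb and Lpl. Ki67, made from Mki67, accumulates from S phase through mitosis and is degraded after division, so cells early in the cycle can sort as Ki67-negative.

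The 4 libraries held 8656255 and 8219620 counts (adult replicates 1 and 2) and 8063370 and 10287876 counts (neonatal replicates 1 and 2). The 2 neonatal libraries differed from each other more than the 2 adult ones did: the chi-square per degree of freedom between replicates was 11.9 at PND8 and 2.55 in adults, where 1 would be counting noise alone, and the correlation of log2 CPM (counts scaled to the library's total) across genes was 0.978 and 0.987. Apart from the index sequence in each column name, the first header field of the count table lists the 10 libraries under names that end in a numeric code. The adult pair shares a code of its own, and each neonatal replicate shares one with the Ki67-positive library of its number, so that code also changes with age. With 2 samples per group the p-values measure only the spread between replicate samples. That spread was estimated from all 10 RNA libraries in 1 fit, not from these 4 alone. In the groups other than PND8 Ki67-negative the chi-square per degree of freedom was 2.55 to 5.34.

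Of the 12230 genes tested, 5720 (46.8%) differed at an edgeR adjusted p under 0.05, the threshold used throughout for "called", "rose" and "fell". The neonatal cells had 3105 genes higher (25.4%) and 2615 lower (21.4%), around a median log2 fold change of 0.027 over all genes tested. Large differences ran mostly upward. More than 2-fold higher were 1249 genes (10.2%) and more than 2-fold lower 664 (5.43%). Beyond 8-fold there were 417 higher and 72 lower genes, and beyond 32-fold 122 and 22. The 4 single-library values did not overlap, with both neonatal libraries above, for 4663 genes (38.1%), and with both below for 4149 (33.9%). Genes called lower were longer than those called higher, with a median transcript length of 3887 against 2583 bases, beside 2815 bases for genes not called. Their median adult level was 78.4 CPM against 24.6 CPM, beside 36.4 CPM for genes not called. At PND8 the medians were 50.6 CPM against 46.7 CPM, beside 35.5 CPM. The calls are made from these same levels, so the adult difference is partly set by the call.

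**Figure D1:**
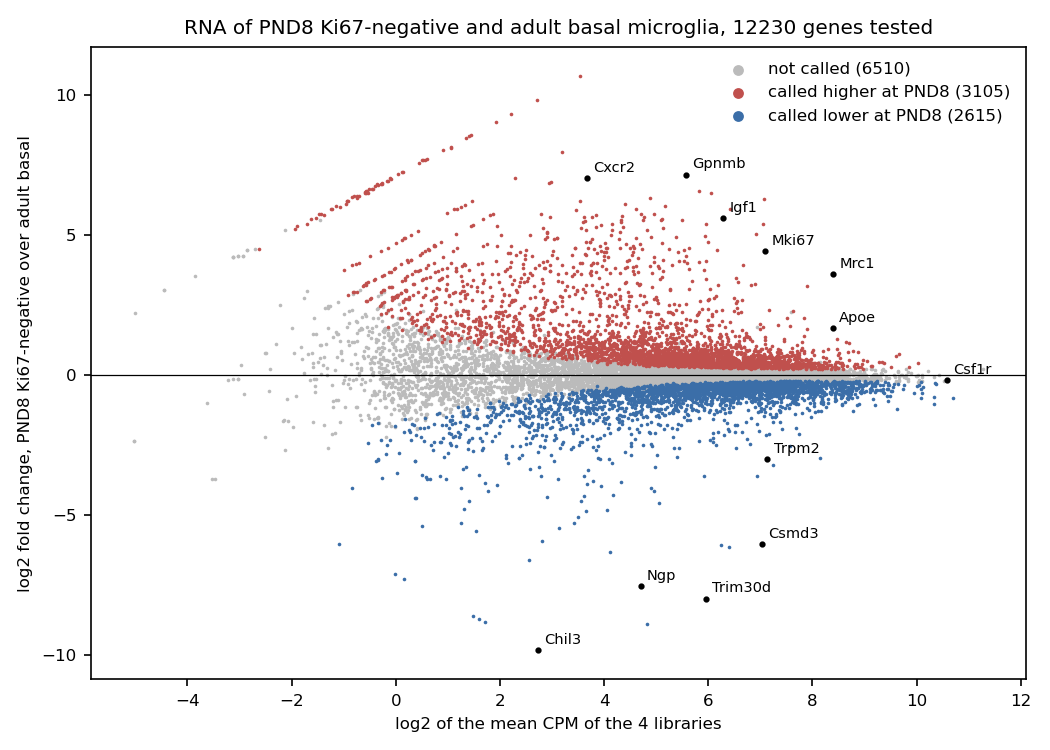
Log2 fold change (PND8 Ki67-negative over adult basal) against the log2 mean CPM of the 4 libraries, 1 point per gene tested. Red points are the 3105 genes called higher, blue the 2615 called lower and grey the rest; the upper side reaches further from 0 than the lower side, and the labelled points are genes named in the text.

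Defining genes of microglia were abundant in all 4 libraries. Csf1r, the survival receptor, stood at 1613 and 1643 CPM in adults and at 1617 and 1267 CPM at PND8, with overlapping libraries and no call (log2 fold change -0.18, edgeR adjusted p = 0.264). P2ry12, a purinergic receptor of homeostatic microglia, read 967 and 963 CPM in adults and 988 and 750 CPM at PND8 (-0.15, edgeR adjusted p = 0.308). Sall1, a lineage transcription factor, read 1170 and 1177 CPM against 1113 and 918 CPM (-0.21, edgeR adjusted p = 0.0928). For these 3 genes the second neonatal library was the lower one. Without the first neonatal library all 3 were called lower, by -0.36, -0.36 and -0.35 on the log2 scale, and without the second P2ry12 stood at 0.01. Tmem119, a surface protein of mature microglia, fell from 776 and 794 CPM to 552 and 487 CPM (-0.60, SE 0.107, edgeR adjusted p = 0.000559).

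Of 30 homeostatic microglia genes tested, 15 fell, 3 rose and 12 were not called, with a median log2 fold change of -0.25. Without neonatal replicate 1 the list had 23 members lower and a median of -0.39, without neonatal replicate 2 a median of -0.18, and without either adult library 11 members lower and 1 higher. Most falls were under 2-fold. Selplg, a ligand for selectins, went from 861 and 858 CPM to 557 and 476 CPM (-0.73). The exception in size was Upk1b, a uroplakin tetraspanin, at 154 and 146 CPM in adults and 2.35 and 2.11 CPM at PND8, far below in both libraries (-6.07, SE 0.209, edgeR adjusted p = 5.13e-10). The members that rose were Crybb1, a crystallin, from 144 and 144 to 217 and 193 CPM (0.51), Ltc4s, which makes leukotriene C4, by 0.40, and P2ry6, a phagocytosis-linked nucleotide receptor, by 0.27. The call of Crybb1 was lost when either adult library was left out.

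**Figure D2:**
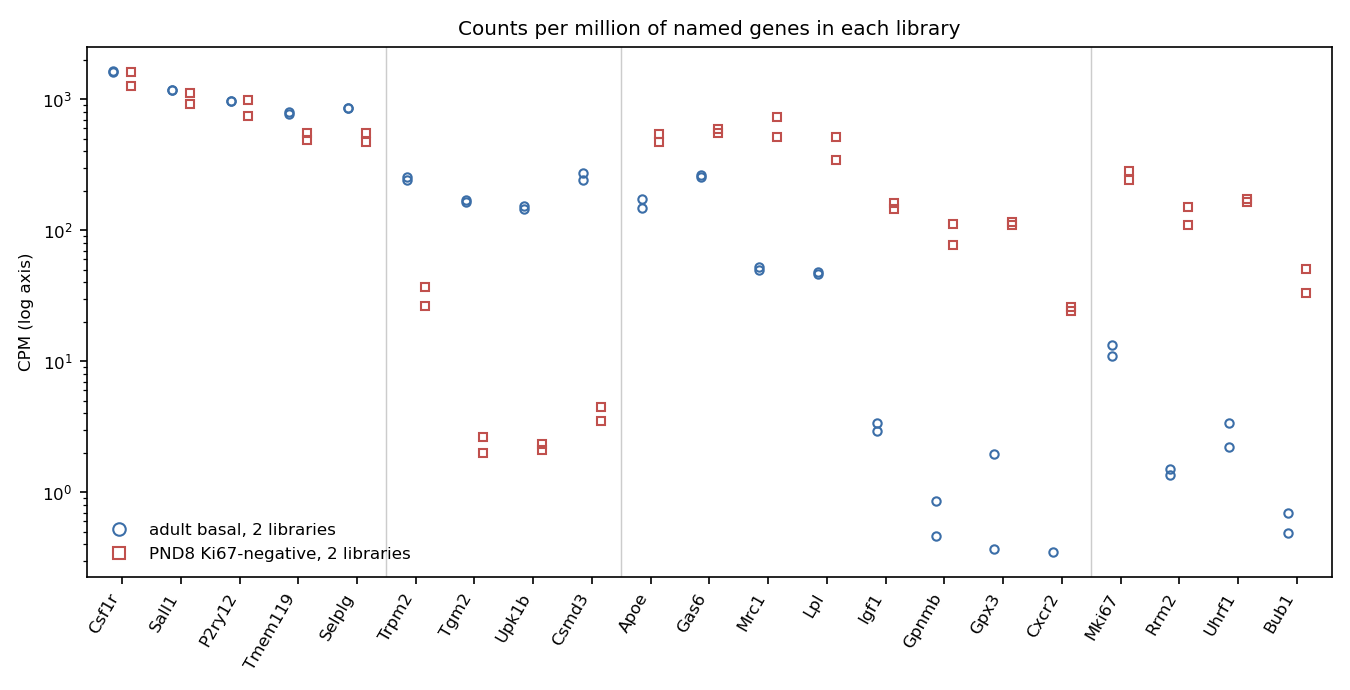
CPM on a log axis for named genes in the 2 adult basal (blue circles) and 2 PND8 Ki67-negative libraries (red squares). From left to right the blocks hold homeostatic genes, genes that fell, genes that rose and cell cycle genes; Csf1r and P2ry12 overlap between groups, while Upk1b, Igf1 and Rrm2 are separated by more than an order of magnitude. A value of 0 (Cxcr2 in 1 adult library) cannot be drawn on this axis.

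Despite the Ki67-negative sort, cell cycle genes formed the most uniform group of rises. All 44 S phase genes were called higher, with a median log2 fold change of 2.98, and so were 48 of 51 G2/M genes, with a median of 3.70 and none called lower. Hjurp, Ctcf and G2e3 were not called. Mki67 itself, whose protein defined the sort, read 13.4 and 11.0 CPM in adults, 242 and 282 CPM in Ki67-negative neonatal cells and 920 and 1107 CPM in the Ki67-positive neonatal cells. The Ki67-negative value thus lay above adults (4.42, SE 0.191, edgeR adjusted p = 3.1e-09) and below the Ki67-positive cells (by 1.95, edgeR adjusted p = 9.17e-06).

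Among S phase genes, Rrm2, a subunit of ribonucleotide reductase, went from 1.5 and 1.34 CPM to 110 and 151 CPM (6.51, SE 0.308, edgeR adjusted p = 7.04e-09). Dtl, which directs destruction of licensing factors during replication, went from 1.27 and 0.855 CPM to 68.6 and 72.7 CPM (6.03). Uhrf1, which brings the maintenance methyltransferase to replicated DNA, went from 3.35 and 2.20 to 165 and 172 CPM (5.91). Among G2/M genes, Bub1, a spindle checkpoint kinase, went from 0.694 and 0.489 to 33.4 and 50.4 CPM (6.12, edgeR adjusted p = 9.62e-08), and Nuf2, a kinetochore component, rose by 5.62. In each of these 5 genes both neonatal libraries were far above both adult libraries.

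The mitotic and replicative lists differed in where the Ki67-negative cells stood relative to the Ki67-positive ones. Summed over the 44 S phase genes, CPM was 776 and 808 in adults, 3519 and 3798 in Ki67-negative and 2287 and 2379 in Ki67-positive neonatal cells, so the Ki67-negative libraries were the highest of the 6. Against Ki67-negative cells, 30 of the 44 genes were lower in Ki67-positive cells and none higher (median -0.73), where 3.15% of all genes tested were lower and 2.75% higher. The number lower was 7 without Ki67-positive replicate 2, 12 without Ki67-positive replicate 1, 16 without Ki67-negative replicate 2 and 31 without Ki67-negative replicate 1, with medians of -0.73, -0.65, -0.64 and -0.84. Summed over the 51 G2/M genes, CPM was 1167 and 1194 in adults, 3258 and 4136 in Ki67-negative and 8332 and 9561 in Ki67-positive cells, and 49 of the 51 were higher in Ki67-positive cells (median 1.48). Both comparisons use the same Ki67-negative libraries, so they are not independent of each other.

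**Figure D3:**
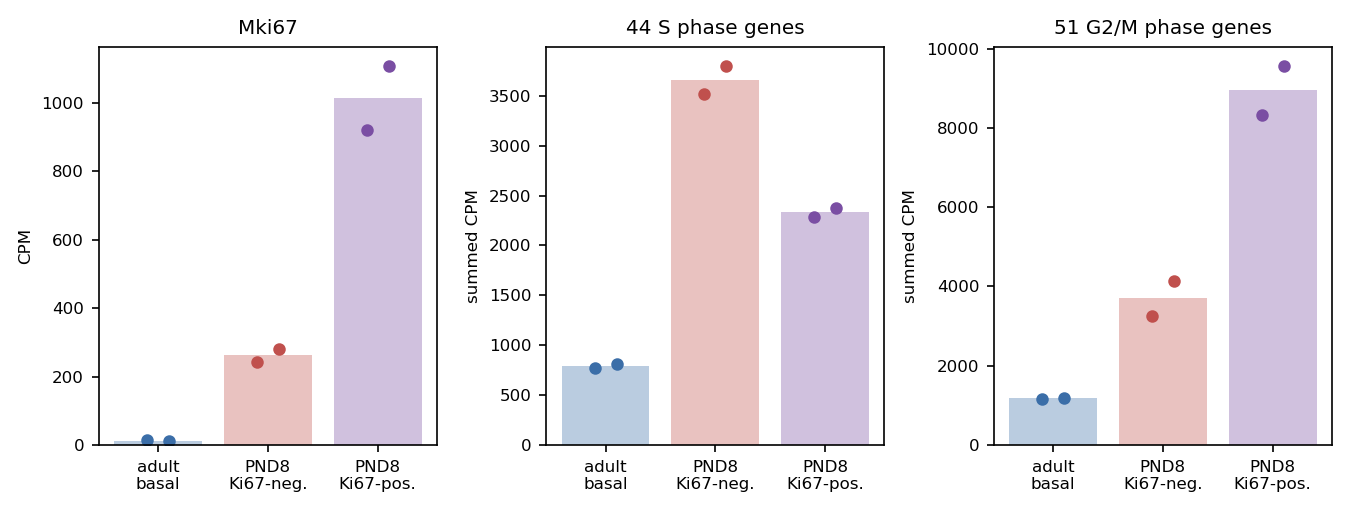
Mki67 (CPM), the sum of 44 S phase genes and the sum of 51 G2/M genes (summed CPM) in adult basal, PND8 Ki67-negative and PND8 Ki67-positive cells. Bars are means of 2 libraries and points the single libraries; the S phase sum is highest in Ki67-negative cells (3519 and 3798), whereas Mki67 and the G2/M sum are highest in Ki67-positive cells.

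The promoters of these genes are shown for the letters they share. Promoter sequences came from RefSeq on build GRCm38.p6, as 250 bases before to 50 bases after a start site lying within 1000 bases of the start in the count table, and matched 15982 genes, 9557 of them tested. The letter patterns described here are an E2F pattern (TTTGGCGC, TTTCCCGC, TTTCGCGC or TTTGCCGC) and the cell cycle homology region, CHR (TTTGAA), each on both strands. The patterns PU.1 (GAGGAAGT), CLEAR (TCACGTGA), M-box (TCATGTGA) and SRE (TCACCCCAC or TCACCCCGC) were searched in the same promoters. They were in 2.98%, 1.59%, 0.638% and 0.531% of promoters of genes more than 2-fold higher. Among genes more than 2-fold lower the shares were 4.39%, 0.798%, 0.599% and 0.599%, beside 3.28%, 1.98%, 0.743% and 1.12% of genes tested. The E2F pattern was in 13 of 32 S phase promoters (40.6%), in 2 of 44 G2/M promoters (4.55%) and in 4.41% of promoters of genes tested. The CHR pattern was in 31 of 44 G2/M promoters (70.5%), in 5 of 32 S phase promoters (15.6%) and in 11.6% of promoters of genes tested. Among genes more than 2-fold higher the E2F pattern was in 87 of 941 promoters (9.25%), and among those more than 2-fold lower in 6 of 501 (1.20%). The first 3 sequences hold the E2F pattern in capitals: Mcm5 (subunit of the replicative helicase; chr8:75109259-75109558, plus strand), with overlapping matches starting 153 and 149 bases before the start, Mcm6 (chr1:128359656-128359955, minus strand) and Dtl (chr1:191575495-191575794, minus strand). The last 2 hold the CHR in capitals: Ccnb2 (cyclin B2; chr9:70421505-70421804, minus strand) and Cdk1 (the mitotic kinase; chr10:69352863-69353162, minus strand). The Cdk1 promoter is also one of the 2 G2/M promoters with an E2F pattern, left in lower case. All are written 5′ to 3′ on the gene's strand.
Mcm5: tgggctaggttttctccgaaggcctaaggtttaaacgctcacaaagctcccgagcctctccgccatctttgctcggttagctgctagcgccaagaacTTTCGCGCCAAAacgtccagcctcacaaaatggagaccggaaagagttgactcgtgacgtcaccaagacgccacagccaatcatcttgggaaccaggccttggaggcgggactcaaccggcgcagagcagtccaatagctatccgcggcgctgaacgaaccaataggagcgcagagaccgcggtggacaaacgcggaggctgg
Mcm6: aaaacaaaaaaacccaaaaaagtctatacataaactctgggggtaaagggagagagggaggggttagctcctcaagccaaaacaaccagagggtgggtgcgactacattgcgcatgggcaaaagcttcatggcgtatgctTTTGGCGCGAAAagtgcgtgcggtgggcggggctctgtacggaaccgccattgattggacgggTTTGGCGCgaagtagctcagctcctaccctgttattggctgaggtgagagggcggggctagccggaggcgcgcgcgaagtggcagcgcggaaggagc
Dtl: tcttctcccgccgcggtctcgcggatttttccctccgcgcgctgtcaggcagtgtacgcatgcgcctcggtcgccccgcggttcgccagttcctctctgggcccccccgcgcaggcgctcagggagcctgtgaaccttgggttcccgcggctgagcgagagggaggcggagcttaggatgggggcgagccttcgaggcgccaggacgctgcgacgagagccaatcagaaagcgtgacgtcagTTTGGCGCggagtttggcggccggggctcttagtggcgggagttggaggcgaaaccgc
Ccnb2: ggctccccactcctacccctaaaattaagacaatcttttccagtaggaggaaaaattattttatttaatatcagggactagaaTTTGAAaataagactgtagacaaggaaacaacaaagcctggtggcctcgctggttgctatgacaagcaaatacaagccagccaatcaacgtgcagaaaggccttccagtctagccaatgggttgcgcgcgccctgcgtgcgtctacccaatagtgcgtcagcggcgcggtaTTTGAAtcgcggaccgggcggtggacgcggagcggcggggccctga
Cdk1: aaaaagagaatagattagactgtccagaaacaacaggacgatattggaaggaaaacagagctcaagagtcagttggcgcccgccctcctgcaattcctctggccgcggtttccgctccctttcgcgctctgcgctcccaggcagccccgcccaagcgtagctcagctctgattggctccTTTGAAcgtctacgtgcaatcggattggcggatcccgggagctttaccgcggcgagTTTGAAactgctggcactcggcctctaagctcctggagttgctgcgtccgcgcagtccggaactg

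These 5 genes were chosen for display after their values were seen. Mcm5 went from 11.8 and 13.2 CPM to 183 and 198 CPM (3.93), and Mcm6 from 21.5 and 23.7 to 216 and 216 CPM (3.26). Cdk1 went from 3.70 and 4.16 to 71.9 and 91.6 CPM (4.38), and Ccnb2 from 3.24 and 3.18 to 21.9 and 29.5 CPM (3.01). In Ki67-positive cells both helicase subunits were lower than in Ki67-negative cells (Mcm5 by -0.82, Mcm6 by -1.07), and both CHR genes were higher (Cdk1 by 0.78, Ccnb2 by 2.40). A match is a description of letters and says nothing of binding.

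Outside the cell cycle, the largest rises came from genes at or near 0 in adults. Gm1673 (a gene with no settled name) had 0 counts in both adult libraries and 8.66 and 17.4 CPM at PND8, at least 36.7-fold higher against a floor of 3 counts over a library. Scn3b, an auxiliary sodium channel subunit, was at least 26.1-fold higher, and Prrt4, a membrane protein, at least 21.4-fold, by the same floor. Cd28, a costimulatory receptor best known from T cells, read 0.116 and 0 CPM in adults and 9.03 and 10.4 CPM at PND8, a ratio of 171 that rests on 1 adult count (95% exact counting interval 30.3 to 6790, edgeR adjusted p = 1.53e-05). Cxcr2, a chemokine receptor best known from neutrophils, read 0.347 and 0 CPM and 24.4 and 26.1 CPM, a ratio of 147 on 3 adult counts (50.2 to 717, edgeR adjusted p = 2.87e-07). Rmi2, which works in the dissolution of recombined DNA, rose with a ratio of 135 on 2 adult counts (37.0 to 1120). Hpse, the heparan sulphate-cleaving heparanase, rose from 0.116 and 1.34 to 49 and 67.7 CPM (6.33, edgeR adjusted p = 5.73e-08). Of the lymphocyte markers 3 were tested: 1 rose, 1 fell and Cd4 was not called (log2 fold changes -2.93 to 1.18). The CD3 chain genes Cd3g and Cd3d had 0 counts in all 4 libraries. Lck, a kinase of T cells, had 16 counts over the adult and 3 over the neonatal libraries. The whole list summed to 99.4 and 104 CPM in adults and 69.4 and 66.3 CPM at PND8. Which cells supplied the Cd28 and Cxcr2 reads was not tested.

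Of 30 genes of axon-tract and proliferative-region microglia, 23 rose, none fell and 7 were not called, with a median log2 fold change of 1.07. Gpnmb, a lysosomal glycoprotein, went from 0.463 and 0.855 CPM to 77.3 and 112 CPM (7.15, SE 0.345, edgeR adjusted p = 7.32e-09). Atp6v0d2, a proton pump subunit, read 0.116 and 0.122 CPM in adults and 8.29 and 22.1 CPM at PND8, a ratio of 142 on 2 adult counts (95% exact counting interval 38.9 to 1170). Gpx3, a secreted glutathione peroxidase, read 1.97 and 0.367 against 109 and 116 CPM (6.55, edgeR adjusted p = 1.87e-09). These genes went from almost no reads to moderate levels in both neonatal libraries. Igf1, the growth factor, went from 3.35 and 2.93 to 145 and 161 CPM (5.60, SE 0.179, edgeR adjusted p = 2.45e-10). Spp1, the secreted matrix protein osteopontin, chosen for mention after its values were seen, went from 6.48 and 5.99 to 238 and 280 CPM (5.37). The 7 members not called were Mmp12, Postn, Plaur, Cd68, Clec7a, Cd9 and Cd74. Clec7a, a beta-glucan receptor, overlapped at 33.9 and 28.0 against 39.9 and 23.5 CPM (0.02), and Cd9, a tetraspanin, at 247 and 253 against 215 and 236 CPM, was -0.15.

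Counted by the change in CPM, the 6 largest gains were Mrc1, Rn45s, Lpl, Arsb, Apoe and Gas6. Mrc1, the mannose receptor, went from 49.7 and 52.7 CPM to 732 and 520 CPM (3.61, SE 0.151, edgeR adjusted p = 2.5e-09). Lpl, lipoprotein lipase, went from 48.5 and 46.3 to 346 and 512 CPM (3.18), and Apoe, the main lipid carrier protein of the brain, from 149 and 173 to 543 and 474 CPM (1.66, SE 0.118, edgeR adjusted p = 1.64e-07). Gas6, a ligand of the phagocytic receptor Mertk, went from 263 and 256 to 596 and 556 CPM (1.15), and Arsb, a lysosomal sulphatase, from 596 and 596 to 1081 and 841 CPM (0.69). Rn45s, a ribosomal RNA precursor, read 600 and 622 against 710 and 1333 CPM (0.74, edgeR adjusted p = 0.0135), and its call rested on neonatal replicate 2, without which the value was 0.19.

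Most genes of lipid synthesis rose. Of 29 sterol and fatty acid synthesis genes tested, 21 rose and none fell (median 0.84). Fasn, the fatty acid synthase, chosen for mention after its values were seen, went from 78.7 and 75.4 to 192 and 200 CPM (1.35, edgeR adjusted p = 6.08e-06), with both neonatal libraries above both adult ones. Of 15 lipid efflux and lipoprotein genes tested, 7 rose (46.7%) and 1 fell (6.67%), beside 25.4% and 21.4% of all genes tested. Their median was 0.07 (0.28 without adult replicate 1). The members that rose included the apolipoproteins Apoc1, from 0.116 and 0 to 13.9 and 22.6 CPM, a ratio of 329 on 1 adult count (95% exact counting interval 58.7 to 13000, edgeR adjusted p = 7.51e-07). Apoc2 rose with a ratio of 16.6 on 2 adult counts (4.26 to 142), a call lost without adult replicate 2. The exporters Abca1 (0.07) and Abcg1 (-0.09) were not called, and Mylip, a ubiquitin ligase of lipid uptake, fell from 433 and 432 to 257 and 267 CPM (-0.72, edgeR adjusted p = 1.01e-05).

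Genes of energy metabolism and of ribosome assembly were shifted upward by less. Over all genes tested 25.4% were called higher and 21.4% lower. The shares higher were 71.9% (respiratory chain), 42.1% (glycolysis) and 40.0% (ribosome biogenesis). Of 32 respiratory chain genes 23 rose and none fell (median 0.51), led by the complex I subunit Ndufa1 (1.59) and the cytochrome oxidase subunit Cox6c, from 12 and 11.4 to 24.5 and 31.2 CPM (1.26). Of 19 glycolysis genes 8 rose and 2 fell (median 0.39, or 0.25 without adult replicate 2): Pgk1 (1.17) and Tpi1 (1.01) led the rises, and the entry enzyme Hk1 (-0.56) and Pdk1 (-0.44), a kinase that holds back pyruvate oxidation, fell. Of 30 ribosome biogenesis genes 12 rose and none fell (median 0.30, or 0.15 with 8 called without neonatal replicate 2; 7 were called without adult replicate 1 and 8 without adult replicate 2), led by Nhp2, a component of small nucleolar particles (1.37), and Npm1, a nucleolar chaperone, from 61.9 and 64.0 to 130 and 129 CPM (1.04). No member of these 3 lists was called when tested against a 2-fold threshold (glmTreat in edgeR).

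Of 26 imprinted and fetal growth genes, 24 were in the table and 15 passed the filter on low counts, which a gene can pass through its neonatal libraries alone. Of the 15, 8 rose (53.3%) and 1 fell (6.67%), beside 25.4% and 21.4% of all genes tested (median 0.73, and 1.24 to 1.27 without either adult library or neonatal replicate 2). Lin28b, an RNA-binding protein of fetal progenitors, read 0 and 0.122 CPM in adults and 5.94 and 5.04 CPM at PND8, a ratio of 94.7 on 1 adult count (95% exact counting interval 16.6 to 3780). Ndn, a paternally expressed growth suppressor, had 0 counts in both adult libraries and 1.98 and 2.38 CPM at PND8. Igf2bp3, an RNA-binding protein of the same fetal network that was chosen for mention after its values were seen, went from 2.54 and 2.81 to 80.2 and 81.6 CPM (4.91). All 3 were above adults in both neonatal libraries. Cdkn1c, an imprinted inhibitor of the cell cycle, fell from 13.2 and 13.8 to 3.22 and 5.04 CPM (-1.68).

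Genes of DNA methylation and polycomb complexes went both ways. Of 26 such genes 11 rose (42.3%) and 6 fell (23.1%), beside 25.4% and 21.4% of all genes tested (median 0.03). Besides Uhrf1, the rises included Ezh2, the histone H3K27 methyltransferase of proliferating cells, from 13.4 and 12.8 to 61.9 and 85.9 CPM (2.50). Its paralog Ezh1, of non-dividing cells, fell from 125 and 128 to 79.8 and 75.2 CPM (-0.71). The largest falls in the list were Cbx7, a chromodomain subunit of polycomb complex 1, from 91.3 and 93.4 to 43.4 and 31.6 CPM (-1.31), and Bmi1, a ring-finger subunit of the same complex (-0.92).

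**Figure D4:**
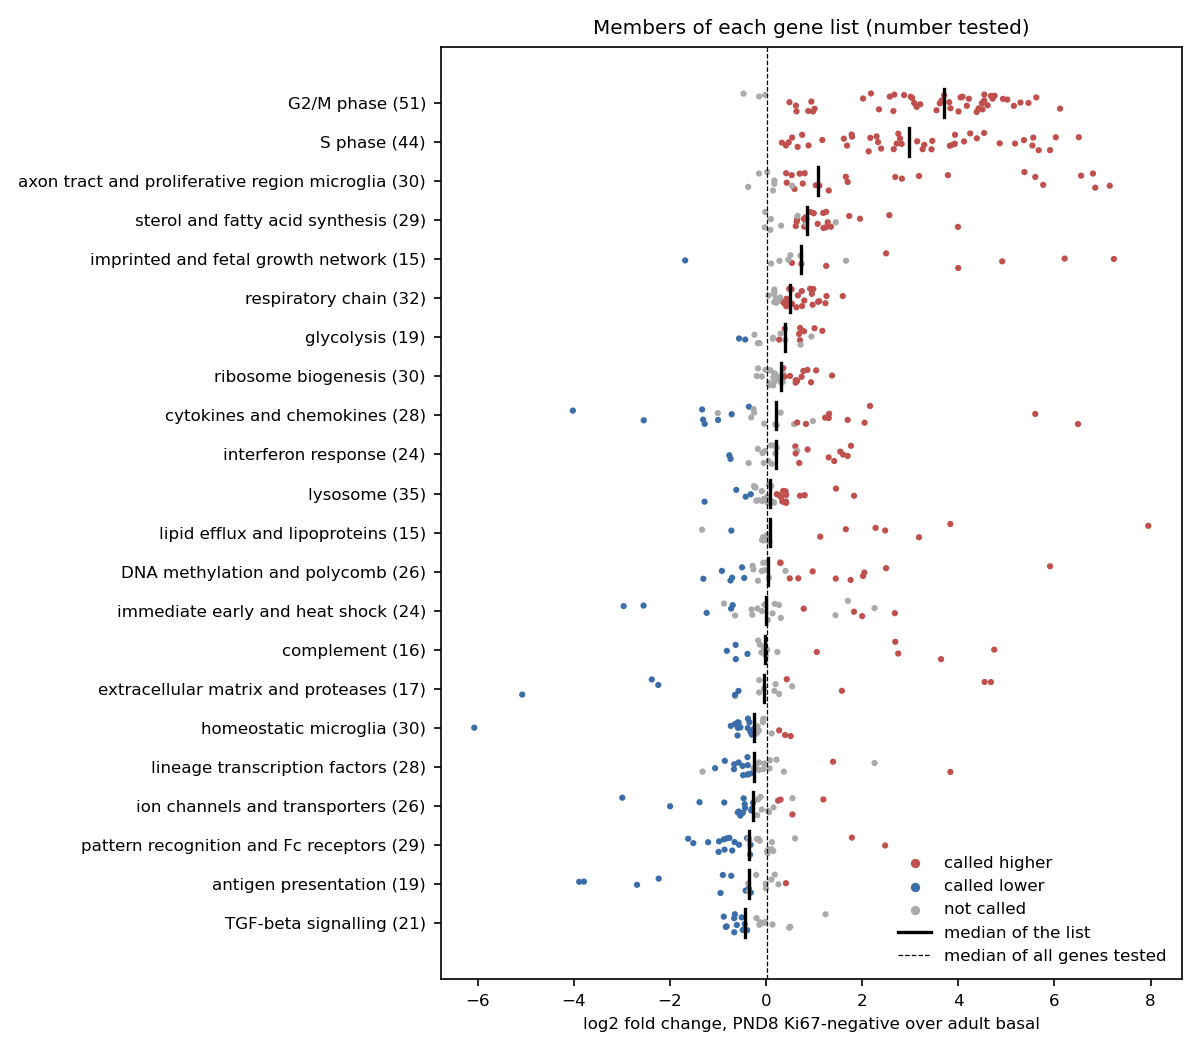
Log2 fold change (PND8 Ki67-negative over adult basal) of every tested member of 22 gene lists, ordered by the list's median (black bar); the number tested is in brackets. Red members were called higher, blue lower and grey not called, and the dashed line is the median of all genes tested (0.027); TGF-beta signalling, antigen presentation and pattern recognition lie at the lower end and the S phase and G2/M lists at the upper end.

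Among the largest falls, Tgm2, the tissue transglutaminase, stood at 165 and 170 CPM in adults and at 1.98 and 2.66 CPM at PND8 (-6.13, SE 0.157, edgeR adjusted p = 5.24e-11). Csmd3, a large transmembrane protein with complement-control domains, went from 276 and 242 to 4.46 and 3.49 CPM (-6.04, edgeR adjusted p = 1.21e-09), and Galnt16, a glycosyltransferase, from 5.09 and 6.23 to 0.247 and 0 CPM, a ratio of 51.7 on 2 neonatal counts (95% exact counting interval 13.9 to 433). Klrd1, a receptor best known from natural killer cells, read 5.55 and 6.60 CPM in adults and 0 at PND8, at least 18.3-fold lower. The 6 largest losses in CPM were in abundant genes: Macf1, a cytoskeletal linker, went from 2075 and 2177 to 1412 and 986 CPM (-0.83), and Soga1, Zfhx3, Pag1, Tanc2 and Tgfbr1 fell by -1.05, -0.78, -1.20, -0.83 and -0.65.

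Genes of TGF-beta signalling, on which the adult microglial state depends, were mostly lower or not called. Of 25 genes 21 were tested, 12 fell and none rose (median -0.44, or -0.20 with no filter on low counts). Tgfbr1, the type I receptor, went from 1322 and 1351 to 956 and 749 CPM (edgeR adjusted p = 0.00034). Itgav, an integrin subunit that releases active TGF-beta, went from 464 and 447 to 284 and 212 CPM (-0.88), and Skil, a target and inhibitor of the pathway, from 560 and 554 to 355 and 269 CPM (-0.84). Tgfb1, the ligand, overlapped between groups at 403 and 415 against 430 and 365 CPM. No member was called against a 2-fold threshold.

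Of 28 lineage transcription factors 12 fell and 2 rose (median -0.26, or -0.39 without neonatal replicate 1). Cebpa, a myeloid factor, fell from 364 and 386 to 187 and 225 CPM (-0.86, SE 0.092, edgeR adjusted p = 7.5e-06). The 2 that rose were Tfec, a relative of the lysosomal factor Mitf, from 1.62 and 1.10 to 20.2 and 19.2 CPM (3.83), and Klf4, from 5.21 and 5.74 to 14.5 and 14.3 CPM (1.39). Spi1, which encodes PU.1, read 223 and 232 CPM in adults and 244 and 234 CPM at PND8 (0.07) and was not called.

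Innate sensing and antigen display were lower. Of 29 pattern recognition and Fc receptor genes 15 fell and 2 rose (median -0.35). Tlr3, which senses double-stranded RNA, fell from 227 and 217 to 83.0 and 72.6 CPM (-1.52, edgeR adjusted p = 4.93e-08), and Tlr12 from 123 and 117 to 35 and 42.5 CPM (-1.62). The scavenger receptors Msr1 (1.78) and Cd36 (2.48) rose from low levels, and the call of Cd36 was lost without neonatal replicate 2. Of 19 antigen presentation genes 10 fell and 1 rose (median -0.36, or -0.81 without neonatal replicate 2). The class II chain genes fell furthest: H2-Aa from 24.4 and 26.9 to 1.73 and 1.93 CPM (-3.79) and H2-Eb1 from 25.1 and 22.7 to 0.866 and 2.20 CPM (-3.89). Class I genes H2-K1 (-0.01), H2-D1 (0.26) and B2m (0.11) were not called, and Tap1, a peptide transporter, rose by 0.41 (edgeR adjusted p = 0.0367), a call that other settings lost.

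Of 16 complement genes tested 5 rose (31.2%) and 4 fell (25%), shares near the 25.4% and 21.4% of all genes tested, with a median of -0.03. The convertase genes C2, from 0.231 and 1.59 to 20.3 and 28.2 CPM (4.75), and Cfb, from 1.85 and 0.978 to 12.8 and 22.8 CPM (3.64), rose. The anaphylatoxin receptors C5ar1 (-0.63) and C5ar2 (-0.82) fell, and C1qa (-0.13), C1qb (-0.10) and C1qc (-0.05) were not called. Of 24 interferon response genes 10 rose (41.7%) and 2 fell (8.33%), beside 25.4% and 21.4% of all genes tested (median 0.20). Without neonatal replicate 2 the interferon median was -0.07 with 5 higher and 3 lower, without neonatal replicate 1 it was 0.59, without adult replicate 1 it was 0.44 with 6 called, and without adult replicate 2 it was 0.37. The rises were mostly at low levels, such as Oas2, an RNA-sensing synthetase, from 10.9 and 11.7 to 35.1 and 41.4 CPM (1.76). The sensor Ddx58 fell from 80.7 and 87.1 to 53.6 and 45.4 CPM (-0.77). Of 28 cytokine and chemokine genes tested 10 rose (35.7%) and 8 fell (28.6%), beside the same 25.4% and 21.4% of all genes. Their median was 0.21, but -0.17 without neonatal replicate 2 and -0.001 without adult replicate 1. Il6, an inflammatory cytokine, fell from 8.44 and 7.58 to 1.11 and 1.56 CPM (-2.55), and Tnfsf8, the ligand of CD30, from 2.78 and 6.23 to 0.124 and 0.367 CPM (-4.02).

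Ion channels were mostly lower: of 26 channel and transporter genes 14 fell and 4 rose (median -0.28). Trpm2, a calcium channel opened by oxidative stress, fell from 256 and 242 to 36.9 and 26.3 CPM (-2.99, SE 0.185, edgeR adjusted p = 5.18e-08), and Kcnj2, an inward-rectifying potassium channel, from 225 and 177 to 44.2 and 56.0 CPM (-2.0). Cacna1a, a calcium channel subunit, rose from 41.2 and 47.0 to 95.5 and 106 CPM (1.19). Of 35 lysosome genes 14 rose (40.0%) and 5 fell (14.3%), beside 25.4% and 21.4% of all genes tested. Their median was 0.08, or 0.13 without adult replicate 2. Ctsh, an aminopeptidase cathepsin, fell from 236 and 237 to 90.2 and 104 CPM (-1.28) and Ctsc by -0.62, whereas Gla, alpha-galactosidase, rose by 1.45. Of 32 extracellular matrix and protease genes 17 were tested, with 4 higher (23.5%) and 5 lower (29.4%). These shares are near the 25.4% and 21.4% of all genes tested. A member can pass the filter on low counts through 1 group alone, as with Col1a2 (1 adult against 32 neonatal counts). The median of the matrix list was -0.04, but 0.15 without adult replicate 2. Mmp9, a matrix-degrading gelatinase, fell from 4.74 and 1.34 to 0.495 and 0.642 CPM (-2.38, edgeR adjusted p = 0.0223), a call lost without adult replicate 1 (-1.21), without either neonatal library and with DESeq2.

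Immediate early and heat shock genes respond to handling. Of 24 genes 4 rose (16.7%) and 5 fell (20.8%), beside 25.4% and 21.4% of all genes tested (median 0.00, or -0.25 without neonatal replicate 1). Ier3, an early response gene, read 11.6 and 5.74 CPM in adults and 84.2 and 28.3 CPM at PND8 (2.68, edgeR adjusted p = 0.00295). Egr1, an early response transcription factor, stood at 65.8 and 66.6 CPM in adults and at 581 and 55.2 CPM in neonatal replicates 1 and 2, so the groups overlapped and it was not called (2.26, edgeR adjusted p = 0.0551). Fos read 50.8 and 64.2 against 297 and 78.9 CPM. Egr3 (-2.55) and the chaperone Hspa1b (-2.96) fell. The Ki67-positive libraries with the same numeric header codes showed the same order, with Egr1 at 355 and 32.0 CPM and Fos at 170 and 14.2 CPM. The glutamate transporter Slc1a3 ran the other way, at 70.5 and 421 CPM in Ki67-negative and 38.7 and 362 CPM in Ki67-positive neonatal cells, beside 233 and 243 CPM in adults. Egr1, Fos and Slc1a3 were chosen for mention after their values were seen.

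Markers of other cells the sort could hold were measured beside these groups, and in bulk RNA fewer cells of a type and less RNA per cell cannot be told apart. A marker can pass the filter on low counts through the group where it is high alone. Calls and medians of lists with few members tested are therefore partly set by the filter. Gfap, for example, had 2 adult and 59 neonatal counts. Of 18 markers of border macrophages, the macrophages of the meninges and vessels, 15 were tested, 12 were higher and none lower (median 1.99), and their summed CPM was 1495 and 1610 in adults and 2660 and 2261 at PND8. Mrc1 made up most of that gain. Lyve1, a hyaluronan receptor, went from 2.08 and 2.81 to 12.8 and 27.1 CPM (3.03), and Pf4, a platelet chemokine also made by these macrophages, from 1.85 and 2.20 to 10.2 and 15.6 CPM (2.67). Cd163, a haemoglobin scavenger receptor (0.35), Stab1 (-0.01) and Clec10a were not called. In Ki67-positive neonatal cells Mrc1 stood at 834 and 814 CPM while Lyve1 stood at 3.75 and 5.78 CPM and Pf4 at 3.75 and 8.67 CPM, Lyve1 being lower than in Ki67-negative cells (-2.07, edgeR adjusted p = 0.00927). The border list summed to 2441 and 2437 CPM there. The part of border macrophages in the rises of Gas6, Igf1 or Apoe was not tested.

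Of 18 monocyte or neutrophil markers 12 were tested, 9 were lower and 2 higher. One of the 2 higher was Cxcr2, with a ratio of 147 on 3 adult counts (95% exact counting interval 50.2 to 717). The list's summed CPM was 1072 and 903 in adults and 589 and 512 at PND8. The receptor Csf3r, also high in microglia, supplied most of that sum. The granule genes came chiefly from adult replicate 1: Ngp read 83.4 and 20.2 CPM in adults and 0.371 and 0.183 CPM at PND8 (-7.54), Ltf 57.7 and 11.1 against 0.495 and 0.367 CPM (-6.30), and Lcn2 fell by 5.92. Camp fell with a ratio of 108 on 2 neonatal counts (95% exact counting interval 29.6 to 900). Chil3, a chitinase-like protein of myeloid cells, read 21.4 and 5.01 CPM in adults and 0 at PND8, at least 39.8-fold lower. The granulocyte genes Elane and Mpo had at most 4 counts in any of the 4 libraries.

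Erythroid and choroid plexus markers were higher at PND8. Of 9 erythroid markers 7 were tested and 6 were higher, summing to 4.16 and 12.2 CPM in adults and 132 and 90.6 CPM at PND8. Nearly all of the non-globin part was Epor, the erythropoietin receptor, from 3.12 and 4.28 to 52.8 and 58.0 CPM. Hba-a1 and Hba-a2 hold identical values in the table and count 1 signal. Of 9 choroid plexus markers 7 were tested and 5 were higher, summing to 26.5 and 39.1 CPM in adults and 186 and 89.7 CPM at PND8, most of it Ttr, the thyroxine carrier, at 22.1 and 29.3 against 144 and 75.2 CPM. Neuron (25.1 and 22.7 against 29.1 and 35.5 summed CPM), astrocyte (7.87 and 6.48 against 31.1 and 11.0) and endothelial or mural markers (87.0 and 85.1 against 86.8 and 88.0) were low in all 4 libraries. Of 7 astrocyte markers tested 3 were higher and none lower (median 2.18), of 4 neuron markers 1 was higher and 1 lower, and of 5 endothelial or mural markers 1 was higher and 1 lower. Lymphocyte markers summed to 99.4 and 104 CPM in adults and 69.4 and 66.3 at PND8, with Cd3g, Cd3d, Cd8a, Ms4a1, Gzma and Ncr1 at 0 in all 4, and of 3 tested 1 was higher and 1 lower. Oligodendrocyte markers summed to 236 and 247 against 259 and 205 CPM, and of 7 tested 2 were lower and none higher.

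Trim12a and Trim30d, among the largest falls, lay in a cluster of Trim genes on chromosome 7 (mm10). Trim12a (chr7:104299897-104315495), of a family of antiviral ubiquitin ligases, read 56.3 and 56.2 CPM in adults and 0 and 0.183 CPM at PND8, a ratio of 515 on 2 neonatal counts (95% exact counting interval 142 to 4260, edgeR adjusted p = 2.21e-08). In the same cluster, Trim30d (chr7:104470014-104507849) read 126 and 120 against 0.619 and 0.367 CPM (-7.97, edgeR adjusted p = 2.43e-10). Of the other members tested, Trim5 (-4.84), Trim34a (-2.86), Trim30b (-2.25) and Trim30a (-0.29) fell, Trim34b rose from 0.347 and 0.489 to 8.66 and 8.90 CPM (4.35), and Trim12c was not called (0.17). These members other than Trim12a and Trim30d were named after their values were seen. They are close paralogs, so reads that fit several of them may be split unevenly by the counting.

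Trim12a and Trim30d were also low in the adult repopulation libraries of the reporter genotype, where Trim12a read 0 and 0 CPM and Trim30d 5.20 and 5.94 CPM in Ki67-negative cells. Trim34b, at 24.6 and 24.8 CPM, and Trim12c, at 108 and 102 CPM, read above untreated adults there. In the wild-type ChIP-seq, H3K27ac regions covered the Trim12a start in both neonatal libraries (normalized tag counts 166 and 149) and in both adult libraries (156 and 155), and likewise at Trim30d (91.3 and 89.2 against 82.6 and 109). The repopulation libraries differ from untreated adults in depletion, recovery and age as well as in genotype, and these cannot be told apart. No library of wild-type neonatal RNA or of untreated adult reporter RNA was analysed here. Mki67 (chr7:135689788-135716379) lies on the same chromosome, outside the cluster, and any link between its position and the Trim values was not tested.

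H3K27ac, a mark of active promoters and enhancers, gave a readout from other mice in which both age groups were WT. These libraries came from fixed cells stained with a Ki67 antibody: 2 of PND8 Ki67-negative cells, and 2 of adult cells aged 60 and 65 days whose file headers also carry the word Vehicle. The file headers of the PND8 libraries name their cells Ki67Low. The authors' regions were called per library, 27644 and 29333 at PND8 and 19572 and 24903 in adults, covering 42.4, 47.7, 30.0 and 42.1 Mb. The share of tags in regions was 47.5% and 45.5% at PND8 and 32.6% and 58.3% in adults. Adult replicate 1 thus had the fewest regions and the lowest share, and presence of a region depends on both.

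Of the 12230 genes tested, 8358 (68.3%) had a region within 1000 bases of the start in all 4 libraries. A region in both neonatal and in no adult library was found at 520 (4.25%), and the opposite at 15 (0.123%). The neonatal-only state was found at 8.28% of promoters of genes called higher (257, 95% Wilson interval 7.36 to 9.30), at 3.32% of genes not called (216, 2.91 to 3.78) and at 1.80% of genes called lower (47, 1.35 to 2.38). Among genes more than 2-fold higher it reached 15.1% (189 of 1249, 13.3 to 17.2). The intervals cover counting error over genes, which are not independent replicates. Adult-only regions were at 9 genes called lower (0.344%), 4 not called and 2 called higher. Without adult replicate 2 the neonatal-only shares were 16.8%, 10.1% and 8.53% for genes higher, not called and lower. With only the 2 libraries whose names share a numeric header code they were 11.4%, 5.44% and 3.67%.

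**Figure D5:**
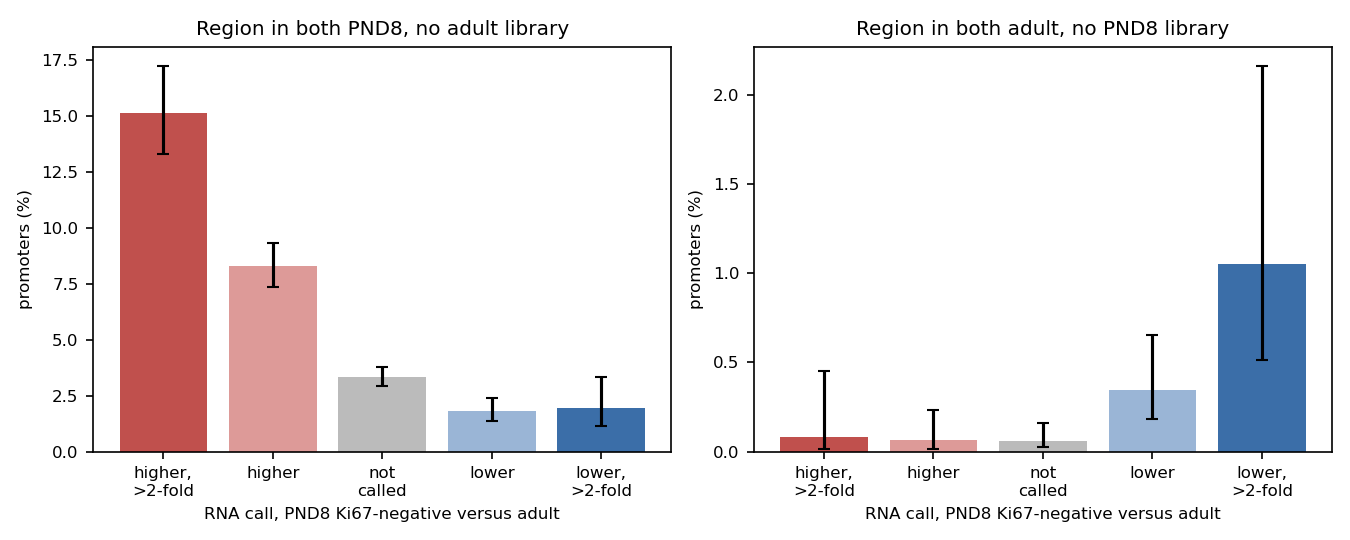
Percent of promoters with an H3K27ac region in both PND8 Ki67-negative and no adult library (left) or in both adult and no PND8 library (right), by the RNA call of the gene; error bars are 95% Wilson intervals. The left panel falls from 15.1% for genes more than 2-fold higher to 3.32% for genes not called; the right panel stays at or under 1.05%, on its own scale.

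Most neonatal-only promoters carried H3K4me3, a promoter mark, in both adult libraries (age 75 days). They were 469 of the 520 (90.2%), and 230 of the 257 that were also called higher (89.5%). The mark is common at promoters of genes tested and not particular to these. It was at 99.0% of promoters with H3K27ac regions in all 4 libraries and at 48.8% of those with a region in none. Among the genes named by the rule, neonatal-only H3K27ac was at Mki67, Rrm2, Bub1, Uhrf1, Apoe, Lpl, Igf1, Gpnmb, Gm1673, Cxcr2, Hpse, C2, Ndufa1, Lin28b and Cacna1d, and adult-only H3K27ac at Csmd3 and Egr3. It was at 12 of 44 S phase and 12 of 51 G2/M promoters. The region at the Apoe start had normalized tag counts of 545 and 542, that at Igf1 260 and 245, that at Lpl 185 and 199 and that at Cxcr2 40.8 and 58.4. At Csmd3 the adult regions had normalized tag counts of 47.6 and 315. At Mrc1, which had regions in all 4 libraries, the counts were 297 and 390 at PND8 and 24.0 and 60.2 in adults. No region lay at the Spp1 start in any of the 4 libraries.

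The promoters of Gpnmb (chr6:49036268-49036567, plus strand) and Apoe (chr7:19699139-19699438, minus strand), both with neonatal-only H3K27ac and higher RNA, are shown with the first 50 transcribed bases in capitals (RefSeq, GRCm38.p6).
Gpnmb: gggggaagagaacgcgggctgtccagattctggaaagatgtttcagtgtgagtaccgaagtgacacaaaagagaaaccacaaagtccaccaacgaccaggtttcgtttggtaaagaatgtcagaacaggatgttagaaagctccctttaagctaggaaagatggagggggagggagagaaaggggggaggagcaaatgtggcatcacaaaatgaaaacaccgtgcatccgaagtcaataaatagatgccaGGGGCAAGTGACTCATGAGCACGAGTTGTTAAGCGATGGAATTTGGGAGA
Apoe: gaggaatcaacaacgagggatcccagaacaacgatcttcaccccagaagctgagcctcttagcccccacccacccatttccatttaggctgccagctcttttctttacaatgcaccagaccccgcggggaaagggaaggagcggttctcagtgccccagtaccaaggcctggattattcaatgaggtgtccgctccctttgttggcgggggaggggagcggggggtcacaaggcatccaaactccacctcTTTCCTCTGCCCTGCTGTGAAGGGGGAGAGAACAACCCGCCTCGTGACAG

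Levels in the adult repopulation libraries, which share the reporter genotype and hold dividing microglia, are given side by side, since that comparison shares the neonatal libraries. Repopulating Ki67-negative cells differed from neonatal Ki67-negative cells at 2203 genes higher (18.0%) and 2270 lower (18.6%). Igf1 stood at 2.71 and 1.37 CPM there, against 145 and 161 at PND8 and 3.35 and 2.93 in untreated adults. Gpnmb stood at 0 and 0.457 CPM, Apoe at 61.2 and 55.5 CPM, and Mrc1 at 28.9 and 25.6 CPM. For these 4 genes the repopulating cells lay near or below the adult level. Cell cycle genes did not follow that pattern: Rrm2 stood at 106 and 158 CPM, Uhrf1 at 117 and 184 CPM and Bub1 at 38.2 and 60.6 CPM, overlapping the neonatal libraries. Genes low at PND8 also divided, with Tgm2 at 204 and 220 CPM and Trpm2 at 494 and 554 CPM in repopulating cells, above the adult basal values, and Upk1b at 32.1 and 24.5 CPM, between the neonatal and adult values.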

How the data were processed

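Poly(A) RNA of sorted microglia was sequenced as stranded (dUTP) libraries, per the labels' protocols. The deposited counts per gene are whole numbers, and the authors' second table holds TPM values; STAR 2.7.0f, Bowtie2 2.3.4.1, HOMER 4.11 and mm10 (GRCm38) are named in the submitters' processing notes. Per the file headers, at most 3 tags per position were kept, which can hold down short abundant genes: 15 to 22 genes per library exceed 3 tags per base. The homogenisation buffer held flavopiridol, an inhibitor of transcription, per the labels' protocols. Chromatin regions were called per library at 4-fold over input and a false discovery rate of 0.001, per the file headers, and each deposited region has a score and a normalized tag count, a coverage signal.

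Counts of all 10 RNA libraries (5 groups of 2) entered one edgeR model (version 4.0.16, on R 4.3.3) with a term per group: low genes were dropped by filterByExpr, libraries scaled by TMM, and quasi-likelihood p-values adjusted by Benjamini-Hochberg over the 12230 genes tested, with 0.05 as the threshold. Quoted values are log2 fold changes, with CPM on TMM-scaled library sizes. The model was tested on simulated data. Alternatives used DESeq2 1.42.0 and limma 3.58.1 (log2 of TPM + 1), other filters and scalings, a replicate block, a 2-fold threshold (glmTreat), the 4 libraries alone and leaving out each library. The block was not used in the main comparison, because adult and neonatal samples sharing a number did not deviate together (r = 0.0111); same-numbered Ki67-positive and Ki67-negative neonatal samples did (r = 0.338, 2 pairs).

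Named genes were 7 set genes, the 12 largest rises and falls among called genes at 5 CPM or more in both libraries of the higher group, the 2 largest called rises and falls of each list, and the 6 largest called gains and losses in CPM (108 genes in all). Some genes that the rule names are not reported here. Other genes named were chosen after their values were seen. The comparison and the gene lists were chosen with earlier results of these data known.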

Additional observations from a re-analysis of the deposited data

How the results depend on the processing

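The count of genes called was 4066 to 5912 when each library was left out in turn, 4973 with DESeq2, 4723 with only the 4 libraries, and 905 (647 higher, 258 lower) against a 2-fold threshold (glmTreat). Scaling by library size alone gave 3394 higher and 2309 lower, and medians of -0.29 for pattern recognition and 0.90 for sterol synthesis. Under glmTreat the called members were 13 of the axon-tract list, 6 of sterol synthesis, 5 each of immediate early, lipid efflux, imprinted and DNA methylation genes, 4 each of cytokine and matrix genes, 3 each of antigen presentation, complement and pattern recognition, 2 ion channels, 1 each of homeostatic, lineage factor, interferon and lysosome genes, and 0 of glycolysis, respiratory chain, ribosome biogenesis and TGF-beta. With no filter on low counts 14 immediate early genes were called, and medians were -0.20 (TGF-beta), 0.18 (matrix), 1.25 (imprinted) and 0.38 (lipid efflux); with DESeq2 they were 0.175 (matrix), 1.24 (imprinted) and 0.34 (lipid efflux). With limma on TPM medians were 2.85 (G2/M), 2.56 (S phase), 0.49 (imprinted) and 0.79 (sterol). Only the 4 libraries left 6 interferon genes called. The cytokine median turned negative with a minimum of 1 CPM (-0.037). Replicate numbers did not pair the adult and neonatal samples (r = 0.0111), while those of Ki67-positive and Ki67-negative neonatal samples deviated together (r = 0.338), and a replicate block over all 10 libraries gave 36 of the 44 S phase genes lower in Ki67-positive cells in place of 30. With a replicate block over the 4 libraries 5337 genes were called, 15 of them immediate early genes, and the cytokine median was -0.018, and over all 10 libraries 6208 were called.

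Leaving out each library gave medians of 2.91 to 4.08 (G2/M), 0.93 to 1.45 (axon tract), -0.39 to -0.25 (lineage factors), -0.81 to -0.31 (antigen presentation), -0.25 to 0.057 (immediate early), -0.17 to 0.22 (cytokines), -0.40 to -0.34 (pattern recognition), 0.83 to 1.05 (sterol), 0.047 to 0.28 (lipid efflux), 0.25 to 0.43 (glycolysis), 0.61 to 1.27 (imprinted), 0.00 to 0.15 (matrix), -0.58 to -0.36 (TGF-beta) and 1.29 to 1.91 (G2/M, Ki67-positive against negative). Called members ranged over 6 to 12 (interferon), 12 to 20 (lysosome), 7 to 13 (ribosome biogenesis) and 7 to 31 (S phase, Ki67-positive against negative). Neonatal-only H3K27ac was at 9.08% to 16.8% of genes higher, 2.03% to 8.53% lower and 3.70% to 10.1% not called, and adult-only at 0.421% to 1.57% lower and 0.0922% to 0.369% not called. Regions above the lower quartile of the deposited score gave 9.37%, 3.37% and 5.67%, and adult-only shares of 0.688% (lower) and 0.353% (not called). The pair sharing a header code, an alternative chosen after seeing the data, gave 11.4%, 3.67% and 5.44%, and adult-only 0.354% (higher), 1.87% (lower) and 0.553% (not called). Of 108 named genes, 57 kept direction and call under all settings; P2ry12, not called, turned to 0.01 without neonatal replicate 2. The causes were not tested. With 2 libraries per group, low genes and small differences are the least certain.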
